A study of Mus musculus with 9 samples.

Results

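The CD surface antigens are genes whose symbol is Cd followed directly by a number, the naming scheme for cell surface molecules recognised by panels of antibodies. They were taken from the platform annotation of the array by symbol, with Cd36, Cd320, Cd74 and Cd14 left out. The rule itself uses no signal, but it was set with earlier results of these data known. The rule found 58 genes on 77 probe sets, out of 8251 genes with 1 symbol and 12422 probe sets without controls. Where several probe sets carried a gene, the brightest over all arrays was used. RNA of the whole inguinal mammary gland (gland no. 4, fat pad included) of wild type C57BL/6J female mice, an inbred line, was hybridized to 9 Affymetrix MG-U74Av2 arrays. Puberty (virgin females of 6 weeks) had 3 arrays, and 2 arrays each came from females 14 days into pregnancy, 10 days into lactation and 4 days after their pups were weaned (involution). The design text calls the arrays biological replicates, and the ages of the later females are not given in the sources used here. No treatment or allele distinguished the groups. The signal is the linear MAS5 value of a probe set after the arrays were scaled to the same median.

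Most CD antigens mark cells of the immune system. CD3 chains carry the signal of the T cell receptor, CD4 and CD8 are the co-receptors that read MHC class II and class I molecules, and CD79a and CD79b carry the signal of the B cell receptor. Others mark macrophages (CD68), vessels and progenitors (CD34) or, for CD24, the epithelium and immature lymphocytes. Tetraspanins such as CD9, CD63, CD81, CD82 and CD151 organise other proteins in the membrane of many cell types. The inguinal mammary fat pad of the mouse also holds a lymph node, and whether it was removed is not given in the sources used here. The signal is relative to the other RNA on an array. In RNA of a whole gland, fewer cells of a type, less RNA per cell and more RNA from other cells cannot be told apart.

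The results turn on the lymphocyte antigens, so promoters are shown of the 3 CD3 genes, which lie together within 40.1 kb of chromosome 9, and of Cd79a. Each window runs from 250 bases before a listed start to 50 bases after it (RefSeq, GRCm38.p6), written 5′ to 3′ on the strand of the gene. For Cd3d and Cd3e this start is not the annotated gene start, which lies at 44981769 and 45009663. Capitals mark CACCTG, an E-box, or its reverse complement CAGGTG, and GGAAGT, an Ets-type motif, or its reverse complement ACTTCC.
Cd3d, chr9:44981536-44981835, + strand: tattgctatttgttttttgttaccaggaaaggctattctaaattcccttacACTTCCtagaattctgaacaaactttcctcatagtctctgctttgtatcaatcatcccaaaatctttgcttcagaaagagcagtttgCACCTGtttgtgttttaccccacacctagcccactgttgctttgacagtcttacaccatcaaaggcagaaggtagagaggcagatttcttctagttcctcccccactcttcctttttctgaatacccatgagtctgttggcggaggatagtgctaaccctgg
Cd3g, chr9:44980382-44980681, - strand: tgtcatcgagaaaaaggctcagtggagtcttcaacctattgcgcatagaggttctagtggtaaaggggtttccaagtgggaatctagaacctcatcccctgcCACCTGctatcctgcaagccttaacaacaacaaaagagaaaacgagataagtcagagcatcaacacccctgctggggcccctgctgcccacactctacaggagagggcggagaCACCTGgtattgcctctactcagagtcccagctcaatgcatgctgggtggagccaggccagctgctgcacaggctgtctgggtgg
Cd3e, chr9:45009562-45009861, - strand: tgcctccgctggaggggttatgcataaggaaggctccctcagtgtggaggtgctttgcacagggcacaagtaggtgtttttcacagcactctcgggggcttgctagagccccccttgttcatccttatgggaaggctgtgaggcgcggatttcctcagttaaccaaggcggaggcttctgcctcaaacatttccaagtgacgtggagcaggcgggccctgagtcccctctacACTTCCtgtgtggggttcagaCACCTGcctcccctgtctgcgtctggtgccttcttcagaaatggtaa
Cd79a, chr7:24897247-24897546, + strand: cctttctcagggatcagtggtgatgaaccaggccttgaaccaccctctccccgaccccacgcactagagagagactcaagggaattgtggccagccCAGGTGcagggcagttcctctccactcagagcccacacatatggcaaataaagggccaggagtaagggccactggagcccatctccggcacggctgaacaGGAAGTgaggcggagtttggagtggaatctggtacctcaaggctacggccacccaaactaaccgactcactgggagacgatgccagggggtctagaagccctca
The E-box letters stood in all 4 windows, 2 times in Cd3g and 1 time in each of the others, and the Ets letters in Cd3d, Cd3e and Cd79a. Both motifs were chosen after these sequences were read. Windows were found for 40 of the 58 genes by symbol, and in the gene's first listed window the E-box letters occurred in 14 of the 40 and the Ets letters in 15. The 40 include the 4 windows shown, from which the motifs were chosen, so these counts are raised by that choice. Among all 32851 windows of the table, not limited to 1 per gene, 20.2% held the E-box letters and 23.8% the Ets letters. A match of letters describes these windows and shows no binding.

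Of the 58 genes, 55 had a mean signal above 20 in at least 1 stage and were tested. The 3 others, the B cell and myeloid receptor gene Cd180, the complement regulator gene Cd46 and Cd40lg, the gene of the CD40 ligand of T cells, had signals of 23.8 or less on every array. The fit covered all 9783 probe sets that passed this filter, on log2 signals in which 20 was the floor and stood for anything lower. By the moderated F test of limma over the 4 stages, with Benjamini-Hochberg adjustment over the 9783, 44 of the 55 differed between stages, against 51.6% of all probe sets tested. Lactation was the lowest stage for 32 of the 44, against 41.5% of all 5047 probe sets that passed, and puberty was the highest for 24, against 17.7%. Of the 44, 5 (Cd24a, Cd6, Cd82, Cd81 and Cd2ap) were highest at lactation, against 44.1%, although another probe set of Cd6 was lowest there. At pregnancy against puberty 4 rose and 20 fell, against 6.20% up and 5.22% down of all tested. At lactation against pregnancy 6 rose and 22 fell, against 21.6% and 19.7%, and at involution against lactation 31 rose and 5 fell, against 22.1% and 23.0%. At involution against puberty 5 were higher (Cd68, Cd300c2, Cd5l, Cd9 and Cd81), against 4.39%, and 1 was lower (Cd164), against 3.10%.

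**Figure D1:**
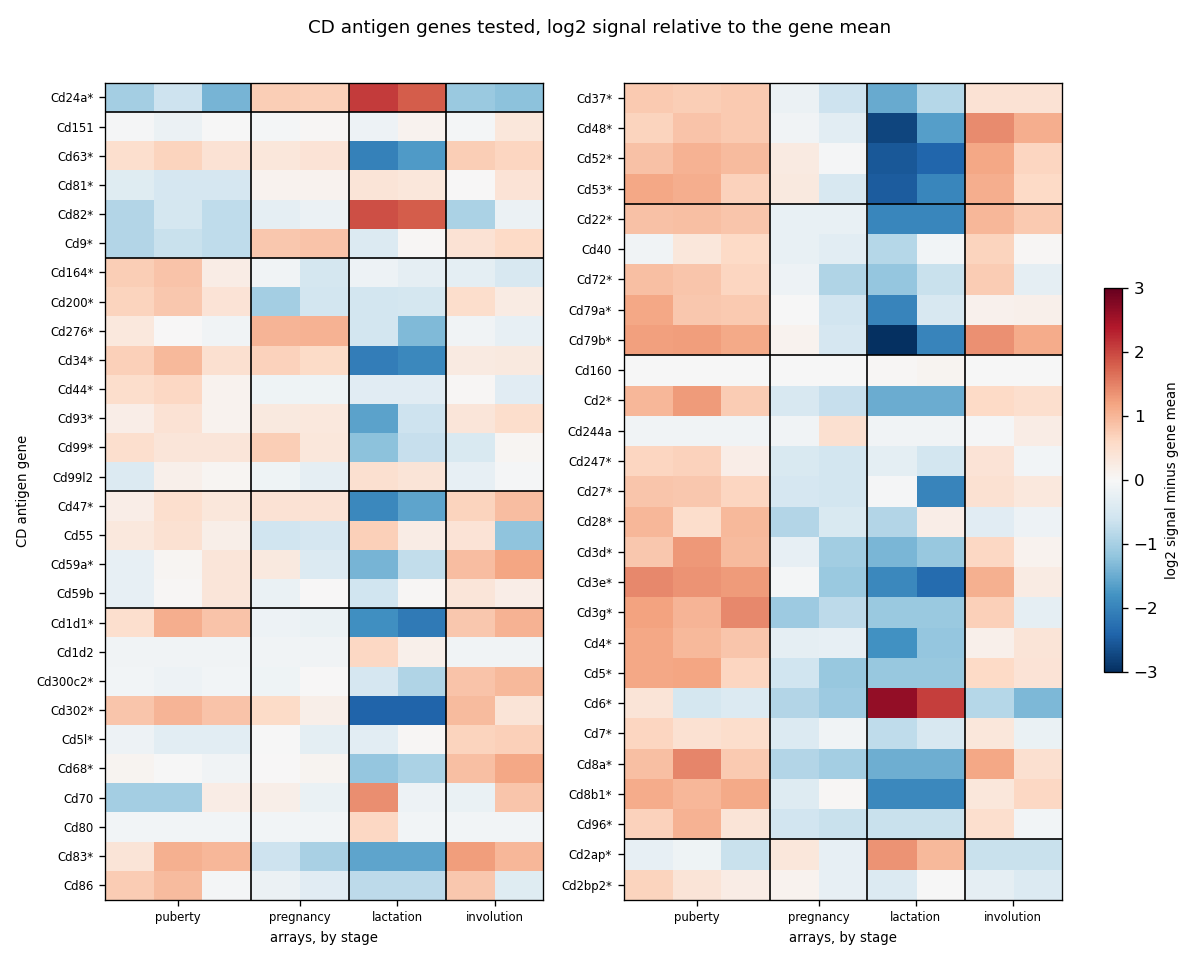
Log2 signal of the 55 tested CD antigen genes on each array (columns, grouped by stage) relative to the gene's mean over the 9 arrays. Red is higher and blue lower, the colour scale ends at 3, horizontal lines separate classes of antigens, and an asterisk marks the 44 genes that passed the F test. Lactation is the lowest stage of 32 of the 44, and Cd6 in the T cell class and Cd24a are red at lactation.

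Several of these counts changed when 1 array was left out, which leaves 1 array in a stage of 2. A call can then be lost with little change in its size. For Cd4 at pregnancy against puberty the log2 change was -1.25 with all arrays, and -1.22 and -1.27 without pregnancy replicates 1 and 2. The 20 falls were 9 without pregnancy replicate 1 and 5 without pregnancy replicate 2, and the 4 rises were 2 whichever array of puberty or pregnancy was left out. The 6 rises at lactation against pregnancy were 3 without pregnancy replicate 2. Of the comparison between involution and puberty, the 5 genes higher were 2 without involution replicate 2. Of the 5, Cd81 was not called when any 1 array except involution replicate 1 was left out (adjusted p up to 0.105). The 1 gene lower was 0 without puberty replicates 1 or 2, lactation replicates 1 or 2 or involution replicate 2, and 2 without involution replicate 1, neither of them Cd164.

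Among the T and NK cell antigens, 11 of 16 were lower at pregnancy than at puberty and 9 of 16 were higher at involution than at lactation. The shares over all probe sets tested were 5.22% and 22.1%. Of the 17 genes of this class, 16 were tested and 14 passed the F test, 13 of them with puberty as the highest stage and 11 with lactation as the lowest. Among all probe sets that passed, these shares were 17.7% and 41.5%. At pregnancy against puberty 0 rose and 5 did not pass, with a median log2 change of -1.31 over the 16, beside a median of 0.00 over all probe sets tested. At lactation against pregnancy 1 rose and 4 fell (median -0.33, beside 0.07 over all), where 21.6% of all tested rose and 19.7% fell. At involution against lactation 9 rose and 1 fell (median 1.36, beside -0.03 over all). The 1 rise and the 1 fall were those of the brightest probe set of Cd6. At involution against puberty 0 of the 16 passed in either direction (median -0.50, beside 0.05 over all).

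Cd3e, which encodes the epsilon chain of the CD3 complex, had signals of 270.2, 253.9 and 241.3 at puberty, 96 and 46.2 at pregnancy, 26.2 and 20.1 at lactation and 206.4 and 117.9 at involution. No stage overlapped another, and involution lay between puberty and pregnancy. At involution it was 6.80-fold higher than at lactation (log2 change 2.76, standard error 0.378, adjusted p = 0.000566 by limma). Its change of -1.94 at pregnancy against puberty (adjusted p = 0.00904) had an adjusted p of 0.0921 without pregnancy replicate 2. Its further fall at lactation, by 1.54 (adjusted p = 0.0117), had an adjusted p of 0.0888 without pregnancy replicate 1, 0.0579 without lactation replicate 1, 0.102 without lactation replicate 2 and 0.440 with a floor of 50.

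The neighbouring gene Cd3g, of the gamma chain, had signals of 100.3, 87.9 and 117.3 at puberty, 20.4 and 25.1 at pregnancy, 4.9 and 3.5 at lactation and 70.7 and 35.9 at involution. It was already close to the floor at pregnancy, where it was 4.47-fold lower than at puberty (log2 change -2.16, standard error 0.302, adjusted p = 0.00351), and both lactation arrays lay under the floor. It was at least 2.52-fold higher at involution than at lactation (adjusted p = 0.0110; 0.0680 and 0.0642 without lactation replicates 1 and 2, and 0.399 with a floor of 50). Cd3d, of the delta chain, had signals of 90.3, 126.2 and 99.9 at puberty, 43.2 and 25.1 at pregnancy, 11.8 and 23.4 at lactation and 79.9 and 55.7 at involution. Its stages followed the same order as those of Cd3e, with 1 lactation array at the floor. Cd3d was higher at involution than at lactation by 1.62 (standard error 0.331, adjusted p = 0.00442; 0.215 with a floor of 50), and lower at pregnancy than at puberty by a log2 change of -1.66 (adjusted p = 0.00983; 0.102 without pregnancy replicate 2). The zeta chain gene Cd247 was dimmer, with 33.3 to 47.3 at puberty, 17.0 and 21.1 at pregnancy, 19.7 and 23.8 at lactation and 27.5 and 38.7 at involution (F test adjusted p = 0.0126; over 0.05 without lactation replicate 2).

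**Figure D2:**
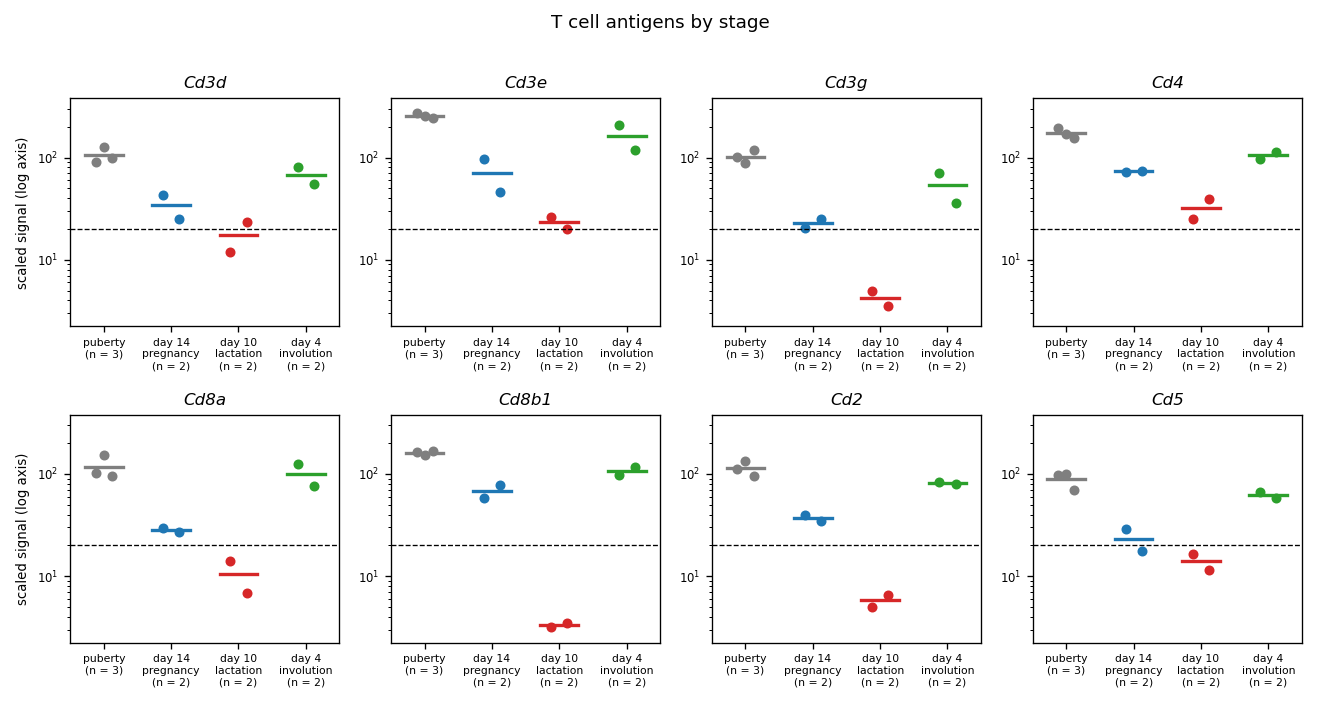
Scaled signal on a logarithmic axis of 8 T cell antigen genes at puberty (n = 3), pregnancy, lactation and involution (n = 2 each). Each point is an array, each bar the mean of a stage, and the floor of 20 is dashed. In each gene the lactation mean is the lowest of the 4 stages and the involution arrays lie above the lactation arrays.

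The co-receptor genes followed the CD3 chains. Cd4, which marks helper T cells and is also made by some myeloid cells, had signals of 196.5, 171.4 and 155.8 at puberty, 72.1 and 74.4 at pregnancy, 24.8 and 39.0 at lactation and 97.7 and 114.2 at involution. Every stage was apart from every other, with involution between puberty and pregnancy. Cd4 fell by 1.23 on the log2 scale at lactation against pregnancy (standard error 0.261, adjusted p = 0.00594) and was 3.40-fold higher at involution than at lactation (adjusted p = 0.000856). Its change at pregnancy against puberty was -1.25 (adjusted p = 0.0116; 0.0821 and 0.0967 without pregnancy replicates 1 and 2). Cd8a, of the alpha chain of the co-receptor of cytotoxic T cells, had signals of 103.1, 152.5 and 94.5 at puberty, 29.8 and 27.2 at pregnancy, 14.2 and 6.8 at lactation and 123.8 and 76.7 at involution. Puberty and involution overlapped, and both lactation arrays were under the floor. It was at least 4.87-fold higher at involution than at lactation (adjusted p = 0.000639), and at pregnancy it was 4.01-fold lower than at puberty (adjusted p = 0.00431; 0.0584 without pregnancy replicate 2). With a floor of 50 both calls were lost (adjusted p = 0.0570 and 0.0590). Cd8b1, of the beta chain, had signals of 164.7, 151.7 and 167.0 at puberty, 58.5 and 78.2 at pregnancy, 3.2 and 3.5 at lactation and 96.5 and 116.5 at involution. It was at least 3.38-fold lower at lactation than at pregnancy (adjusted p = 0.000591) and at least 5.30-fold higher at involution than at lactation (adjusted p = 9.88e-05), so both chains of CD8 were at the floor at lactation alone. The fall of Cd8b1 at lactation was not called with a floor of 50, and its probe set is marked by Affymetrix as shared by several transcripts. The probe sets used for Cd22, Cd68, Cd86, Cd44 and Cd80 carry the same mark.

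Among other receptor genes of T and NK cells, Cd2, Cd5, Cd96 and Cd7 were highest at puberty and lowest at lactation, like Cd3e. The co-stimulatory receptor genes Cd28 and Cd27 did not pass at involution against lactation (adjusted p = 0.854 and 0.0542). Cd2, of an adhesion receptor of T and NK cells, had signals of 110.6, 134.7 and 94.5 at puberty, 39.7 and 34.6 at pregnancy, 5.0 and 6.6 at lactation and 84.1 and 79.1 at involution, with no stage overlapping another. It was 3.03-fold lower at pregnancy than at puberty (log2 change -1.60, standard error 0.223, adjusted p = 0.00348) and at least 4.08-fold higher at involution than at lactation (adjusted p = 0.000303). Cd5, of an inhibitory receptor of T cells and some B cells, was 3.63-fold lower at pregnancy (29.0 and 17.6) than at puberty (98.1, 98.9 and 69.1; adjusted p = 0.00320), and stood at 16.6 and 11.6 at lactation and 66.3 and 58.5 at involution. Cd28, of the co-stimulatory receptor, differed between stages (F test adjusted p = 0.0150), but its lowest stage was pregnancy (15.1 and 26.7) and its involution signals of 29.0 and 33.0 overlapped the lactation signals of 18.0 and 41.9. Cd27, a receptor gene of the TNF receptor family, lay at 77.5 and 8.7 on the lactation arrays, so that its F test (adjusted p = 0.0373) was not passed without any 1 of 7 arrays, all but the lactation arrays. Cd28 was not called without puberty replicates 1 or 3 or pregnancy replicate 1. The dim genes Cd160 and Cd244a, of NK cell receptors, stayed between 2.8 and 30.4 and did not pass (adjusted p = 0.883 and 0.394), although Cd160 passed when either lactation array was left out and Cd244a without pregnancy replicate 1. Cd96, of a receptor of T and NK cells, was at 41.4 to 65.2 at puberty, 21.4 and 13.5 at pregnancy, 18.3 and 5.9 at lactation and 44.9 and 29.8 at involution (F test adjusted p = 0.00409). Cd7 kept a higher level throughout, with 129.4 to 148.9 at puberty and 55.9 and 68.5 at lactation (F test adjusted p = 0.0117; not passed without lactation replicate 1).

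The probe sets of Cd6, a T cell receptor of the scavenger family, disagreed. The brightest had signals of 67.1, 35.7 and 38.3 at puberty, 28 and 24.1 at pregnancy, 318.7 and 213.9 at lactation and 28.2 and 16.1 at involution, a rise of 3.33 at lactation against pregnancy (standard error 0.368, adjusted p = 0.000269). The other had 104.0, 137.1 and 92.2 at puberty, 30.2 and 30.5 at pregnancy, 6.4 and 4.0 at lactation and 53.4 and 44.9 at involution, the order of Cd3e. At involution against lactation the brightest fell by 3.46 (adjusted p = 0.000161) while the other rose by at least 2.45-fold (adjusted p = 0.00354), so no direction can be given for the gene. Of the 15 CD antigen genes with several probe sets, Cd6 was the only 1 whose probe sets passed in opposite directions in any of the 4 comparisons between stages.

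Of 6 B cell antigen genes 5 were tested and 4 passed the F test, all 4 with lactation as the lowest stage. Of the 5, 2 fell at pregnancy against puberty, 2 at lactation against pregnancy, and 4 rose at involution against lactation. Of all probe sets tested, 5.22% and 19.7% fell and 22.1% rose in these comparisons. Lactation was the lowest stage for 41.5% of all that passed the F test. Cd79b, of the beta signalling chain of the B cell receptor, had signals of 623.2, 628.9 and 581.1 at puberty, 287.9 and 187.4 at pregnancy, 14.5 and 67.6 at lactation and 685.6 and 576.2 at involution. Puberty and involution overlapped, and involution was 17.1-fold higher than lactation (log2 change 4.10, standard error 0.470, adjusted p = 0.000237). The size of the rise depended on the lactation array used, with 9.32-fold without lactation replicate 1 and 31.3-fold without lactation replicate 2. Cd79b was 6.32-fold lower at lactation than at pregnancy (adjusted p = 0.00253; 3.43-fold and 11.6-fold without lactation replicates 1 and 2), while its change at pregnancy against puberty was -1.39 and did not pass (adjusted p = 0.0747). Cd79a, of the partner chain, had signals of 836.8, 660.2 and 649.8 at puberty, 375.6 and 253.7 at pregnancy, 94.9 and 268.1 at lactation and 410.1 and 419.8 at involution. The lactation arrays lay far apart, and 1 of them lay between the pregnancy arrays. The rise of Cd79a at involution was 1.38 (adjusted p = 0.0249), a call lost with an adjusted p of 0.132 without lactation replicate 1, 0.126 without involution replicate 1, 0.111 without involution replicate 2 and 0.0824 with a floor of 50. Without lactation replicate 2 the rise of Cd79a was 4.38-fold.

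Cd22, an inhibitory receptor of B cells, had signals of 143.4, 147.1 and 139.3 at puberty, 67.0 and 67.0 at pregnancy, 15.2 and 8.9 at lactation and 155.0 and 134.2 at involution. Its arrays agreed closely within stages. Cd22 was at least 3.35-fold lower at lactation than at pregnancy (adjusted p = 0.000308) and at least 7.21-fold higher at involution than at lactation (adjusted p = 2.15e-05), and at pregnancy against puberty it fell by 1.10 (adjusted p = 0.00677; 0.0536 without pregnancy replicate 2). Cd72, a B cell co-receptor gene, had signals of 179.8, 171.6 and 150.8 at puberty, 86.9 and 51.8 at pregnancy, 43.4 and 60.9 at lactation and 162.8 and 79.4 at involution (F test adjusted p = 0.0116; 0.0934 and 0.0602 without lactation replicates 1 and 2). Cd40, of the receptor for T cell help on B cells and antigen presenting cells, had signals of 8.6 to 56.8 and did not pass (adjusted p = 0.142).

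The 4 pan-leukocyte antigens all passed the F test, all with lactation as the lowest stage, and all 4 fell at lactation and rose at involution. Of all probe sets tested, 19.7% fell at lactation and 22.1% rose at involution. Cd52, of a small glycoprotein of lymphocytes and myeloid cells, had signals of 1028.0, 1144.8 and 1082.6 at puberty, 680.5 and 543.2 at pregnancy, 96.5 and 107.9 at lactation and 1255.8 and 879.9 at involution. It was 5.96-fold lower at lactation than at pregnancy (log2 change -2.58, standard error 0.191, adjusted p = 3.97e-05) and 10.3-fold higher at involution than at lactation (adjusted p = 1.13e-05). Cd48, of a ligand of NK and T cell receptors, had signals of 216.5, 244.9 and 233.3 at puberty, 126.8 and 109.0 at pregnancy, 13.9 and 43.4 at lactation and 364.9 and 290.5 at involution. It was the 1 antigen of this class with involution as its highest stage, apart from all other arrays, although its difference between involution and puberty of 0.49 did not pass (adjusted p = 0.376). Cd53 and Cd37 encode tetraspanins of leukocytes. Cd53 had signals of 685.1, 655.4 and 493.8 at puberty, 374.9 and 220.8 at pregnancy, 54.7 and 79.7 at lactation and 651.3 and 468.5 at involution, and its log2 change at lactation against pregnancy was -2.12 (adjusted p = 0.000952). Cd37 lay at 372.7 to 385.2 at puberty, 198.5 and 144.2 at pregnancy, 77.9 and 122.3 at lactation and 300.4 and 302.9 at involution, with a rise at involution against lactation of 1.63 (adjusted p = 0.000694). Its fall at lactation, by 0.79 (adjusted p = 0.0237), was not called without pregnancy replicate 1 (0.164) or lactation replicate 1 (0.117), nor with a floor of 50 (0.0540).

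**Figure D3:**
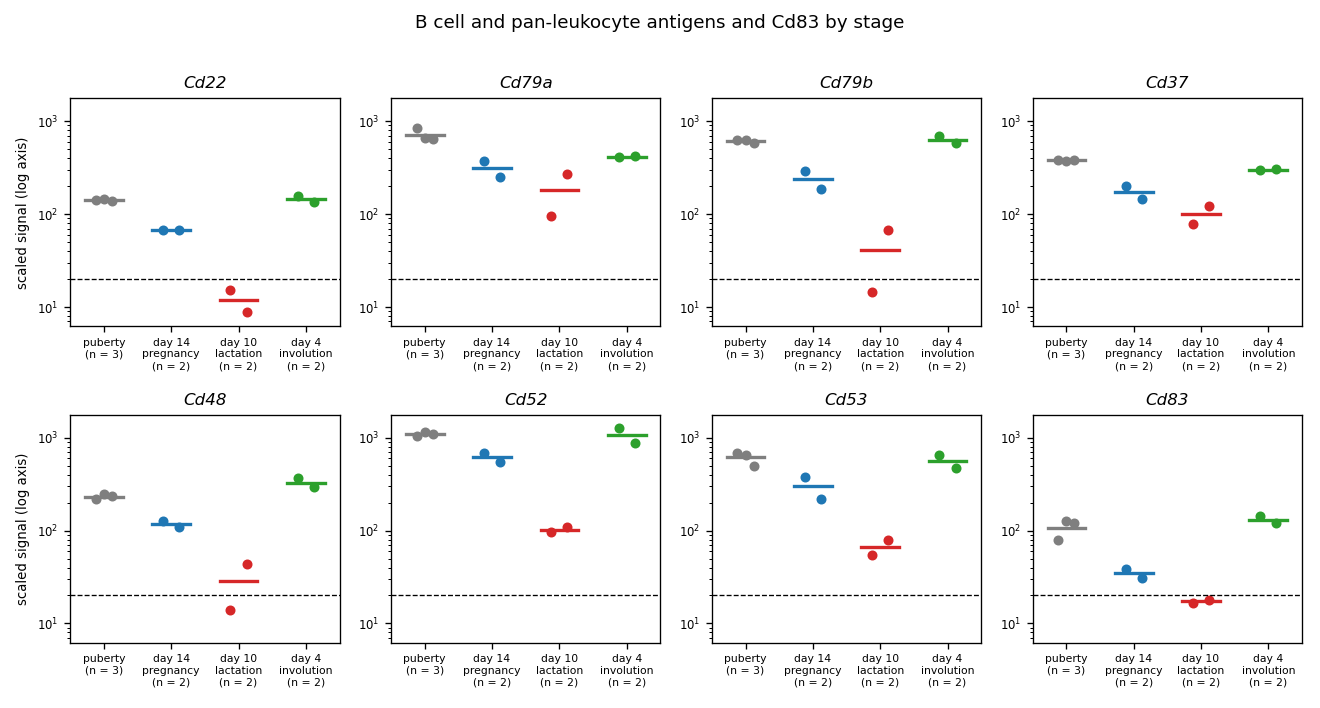
Scaled signal on a logarithmic axis of B cell genes (Cd22, Cd79a, Cd79b), pan-leukocyte genes (Cd37, Cd48, Cd52, Cd53) and Cd83 at the 4 stages. Each point is an array, each bar the mean of a stage, and the floor of 20 is dashed. The lactation mean is the lowest in each gene, and the lactation arrays of Cd79a (94.9 and 268.1) and Cd79b (14.5 and 67.6) lie far from each other.

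The summed signals of lymphocyte markers without CD names were also lowest at lactation, while single markers differed. Of 11 measured T cell markers the summed signal was 3360 to 3629 at puberty, 1671 to 2092 at pregnancy, 837.9 to 1062 at lactation and 2719 to 2944 at involution, with 9 tested and 8 past the F test. Of the 9, 0 rose and 4 fell at pregnancy against puberty, 1 rose and 4 fell at lactation against pregnancy, and 5 rose and 1 fell at involution against lactation. Of all probe sets tested, 5.22% fell at pregnancy, 19.7% fell at lactation and 22.1% rose at involution. Lat, an adaptor gene of T cell receptor signalling, was the 1 that passed in the other direction, with 188.9 and 172.5 at lactation and 78.3 to 109 elsewhere. Zap70 and Txk were lowest at pregnancy. Zap70 had 101.8 and 126.1 there and 218.8 and 142.5 at lactation, and its F test did not pass (adjusted p = 0.0883). Txk had 5.9 and 9.1 at pregnancy and 37.6 and 6.9 at lactation. Thy1 of this list is also made by stroma. Of 14 measured B cell markers the summed signal was 3951 to 4084 at puberty, 2020 to 2225 at pregnancy, 1056 to 1963 at lactation and 4738 to 4831 at involution, with 13 tested and 9 past the F test. Of the 13, 4 fell at pregnancy against puberty, 3 fell at lactation against pregnancy and 9 rose at involution against lactation, and the involution sum was mostly that of Ighm (2620.1 and 2680.8). Ctla4 and Sh2d1a of the first list and Cr2 of the second were under the floor on every array. Of 8 markers of lymph node stroma and vessels 4 were measured, and they did not move together. Their summed signal was 832.5 to 1087 at puberty, 1350 to 1592 at pregnancy, 4615 to 4829 at lactation and 1290 to 1535 at involution, most of it from Clu, which other cells also make (4483.6 and 4729.5 at lactation). Cxcl13, a chemokine gene of B cell follicles, had signals of 125.4, 103.2 and 112.9 at puberty, 61.2 and 54.7 at pregnancy, 3.9 and 11.6 at lactation and 121.2 and 96 at involution (F test adjusted p = 0.000136). Ccr7, a receptor gene of lymphocytes homing to lymph nodes, was also highest at puberty (61.2 to 82.6). Its lactation arrays (25.5 to 26.3) lay between those of pregnancy (23.8 and 34.6). Madcam1, a vessel adhesion gene, was highest at pregnancy (103.8 and 154). The part of lymph node tissue in the lymphocyte results was not tested. The 7 genes listed for plasma cells had a summed signal of 691.1 to 841.4 at puberty, 1097 to 1448 at pregnancy, 3170 to 3201 at lactation and 7901 to 11440 at involution. Single genes carried it: Xbp1, which secretory epithelium also makes, had 1959.6 and 2019 at lactation, and Igha had 5856.4 and 9318.6 at involution. At involution against lactation 3 of the 7 rose (Jchain, Igha and Prdm1) and 2 fell (Xbp1 and Igll1), against 22.1% and 23.0% of all probe sets tested. Igll1 is a gene of B cell precursors and does not mark plasma cells.

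All 10 genes of myeloid and antigen presenting cells were tested and 6 passed the F test, 5 of them with involution as the highest stage, against 21.7% of all probe sets that passed. At lactation against pregnancy 1 rose, 4 fell and 5 did not pass, and at involution against lactation 6 rose and 1 fell. The 1 that rose and then fell was Cd1d2. Of all probe sets tested, 19.7% fell at lactation and 22.1% rose at involution. Cd68, the lysosomal glycoprotein gene that marks macrophages, had signals of 235.9, 222.7 and 207.4 at puberty, 226.6 and 236.2 at pregnancy, 101.1 and 116.2 at lactation and 420.3 and 503.3 at involution. Puberty and pregnancy overlapped, with a log2 difference of 0.06 (standard error 0.143, adjusted p = 0.899). Cd68 was 4.24-fold higher at involution than at lactation (adjusted p = 3.13e-05) and was also higher than at puberty, by 1.05 (adjusted p = 0.00375). Cd300c2, of an activating receptor of myeloid cells, had signals of 108.2, 102.0 and 107.3 at puberty, 103.8 and 114.4 at pregnancy, 79.8 and 61.2 at lactation and 206.2 and 223.5 at involution. Both involution arrays lay apart from all others, with a rise from lactation of 1.62 (adjusted p = 0.000303) and a difference from puberty of 1.02 (adjusted p = 0.0111; 0.0783 without involution replicate 2). Cd5l, of a secreted macrophage protein, was dim, with 39.6 and 40.9 at involution and 25.5 or less elsewhere (F test adjusted p = 0.00599; 0.159 with no floor, and all of its values lie under a floor of 50).

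Among genes of antigen presentation, Cd83 and Cd1d1 were already lower at pregnancy than at puberty. Cd83, of a marker of mature dendritic cells and activated B cells, had signals of 78.2, 125.3 and 119.5 at puberty, 38.8 and 30.5 at pregnancy, 16.8 and 17.8 at lactation and 143.1 and 119.4 at involution. It was 3.06-fold lower at pregnancy than at puberty (adjusted p = 0.00671; 0.0817 without pregnancy replicate 2) and at least 6.54-fold higher at involution than at lactation (adjusted p = 0.000168). A dimmer probe set of Cd83 was also lower at pregnancy (log2 change -1.4, adjusted p = 0.0370), but its rise at involution against lactation, of 0.91, did not pass (adjusted p = 0.0862). Its highest stage was puberty (61.3 to 90.3), with 62.0 and 33.3 at involution. Cd1d1, which presents lipids to NKT cells, had signals of 462.0, 687.2 and 582.2 at puberty, 293.0 and 282.4 at pregnancy, 90.2 and 74.4 at lactation and 567.7 and 661.1 at involution, and was 7.48-fold higher at involution than at lactation (adjusted p = 2.09e-05). Its change at pregnancy against puberty was -0.99 (adjusted p = 0.0104; 0.0742 and 0.107 without pregnancy replicates 1 and 2). Cd302, a C-type lectin gene, was at 187.3, 213.1 and 190.3 at puberty and 155.4 and 118.7 at pregnancy, under the floor on both lactation arrays (19.1 and 15.5) and at 203.5 and 136.3 at involution, a rise of at least 8.33-fold (adjusted p = 4.25e-05). The co-stimulatory ligand gene Cd86 was at 58.9, 66.6 and 33.1 at puberty, 30.8 and 27.2 at pregnancy, 10.8 and 5.7 at lactation and 61.0 and 27.1 at involution, and its F test did not pass (adjusted p = 0.0671). It passed with no floor (adjusted p = 0.00573), without puberty replicate 3 (0.0292) and without involution replicate 1 (0.0496) or 2 (0.0300). Cd80, Cd70 and Cd1d2 did not pass the F test (adjusted p = 0.344, 0.263 and 0.0580), and Cd1d2 was the 1 gene of the class above the floor on both lactation arrays alone (33 and 24.1). Cd1d2 passed when either lactation array was left out, and Cd80 without lactation replicate 2. The list of 19 macrophage and myeloid markers without CD names had a summed signal of 6931 to 7979 at puberty, 7066 to 7405 at pregnancy, 3109 to 3540 at lactation and 13220 to 14590 at involution. At involution against lactation 16 of the 19 rose, beside 22.1% of all probe sets tested.

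Cd24a, the epithelial antigen, ran opposite to the leukocyte antigens. Its product is a small glycoprotein held in the membrane by a lipid anchor, and it is used with CD29 and CD49f to sort mammary epithelial cells. Cd24a had signals of 861.0, 1138.7 and 664.3 at puberty, 2906.9 and 2844.9 at pregnancy, 7411.1 and 6164.1 at lactation and 801.4 and 742.0 at involution. Puberty and involution overlapped, and pregnancy and lactation were each apart from the rest. Cd24a was 3.32-fold higher at pregnancy than at puberty (log2 change 1.73, standard error 0.211, adjusted p = 0.00211), 2.35-fold higher at lactation than at pregnancy (log2 change 1.23, standard error 0.231, adjusted p = 0.00335) and 8.77-fold lower at involution than at lactation (log2 change -3.13, adjusted p = 2.90e-05). Under quantile normalization the rise at lactation was 0.61 and did not pass (adjusted p = 0.0671).

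Other markers of luminal epithelium did not share the course of Cd24a in full. The 10 measured luminal markers had a summed signal of 2021 to 3519 at puberty, 5941 to 6776 at pregnancy, 4807 to 5592 at lactation and 3399 to 4982 at involution. At pregnancy against puberty 5 of the 10 rose and 0 fell, and at lactation against pregnancy 1 rose and 5 fell. Of all probe sets tested, 6.20% rose at pregnancy, and 21.6% rose and 19.7% fell at lactation. The 1 that rose at lactation was Elf5, which moved in the direction of Cd24a at each step. Elf5 had 34.6 to 42.5 at puberty, 1093.8 and 1215.5 at pregnancy, 3561.3 and 2455.7 at lactation and 434.2 and 631.9 at involution. Epcam, of an epithelial adhesion protein, had signals of 43.8 to 60 at puberty, 167.5 and 193.2 at pregnancy, 205.8 and 221.0 at lactation and 133.7 and 183.4 at involution, so that its involution arrays overlapped those of pregnancy, where those of Cd24a did not.

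**Figure D4:**
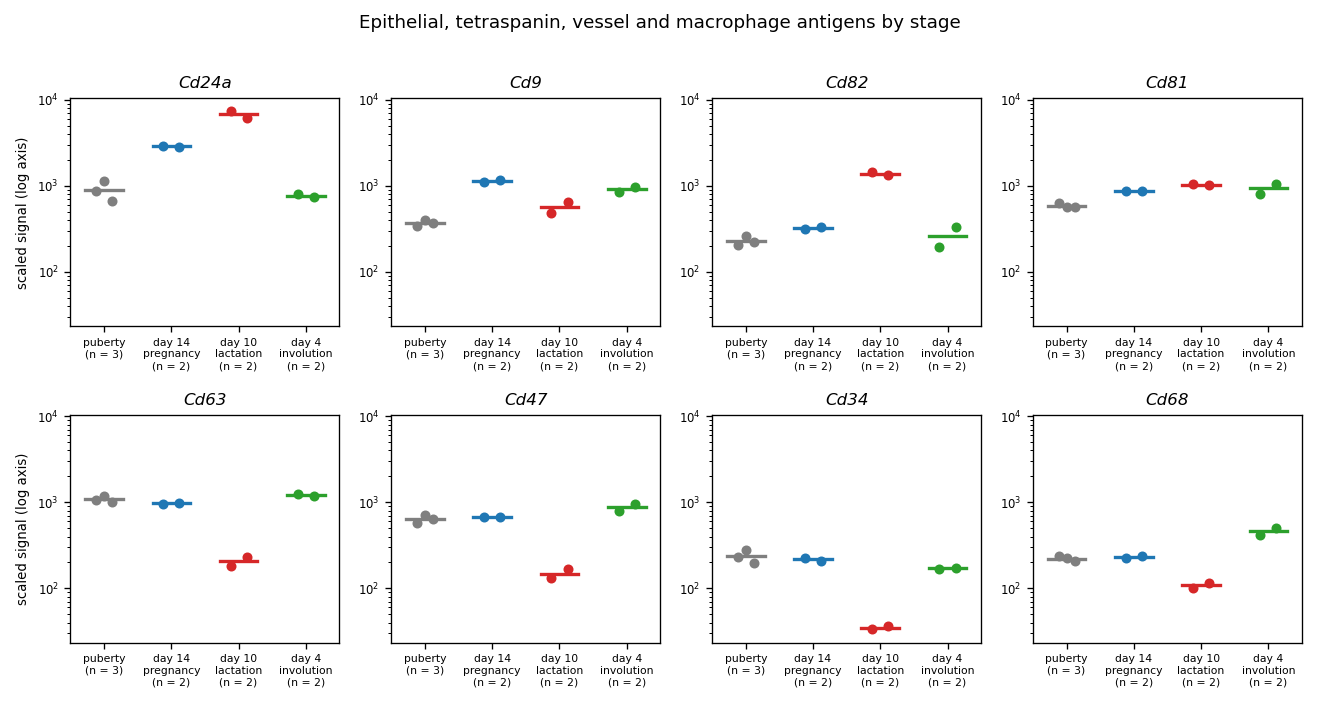
Scaled signal on a logarithmic axis of Cd24a, the tetraspanin genes Cd9, Cd82, Cd81 and Cd63, and Cd47, Cd34 and Cd68 at the 4 stages. Each point is an array and each bar the mean of a stage. Cd24a and Cd82 are highest at lactation and Cd9 at pregnancy, whereas Cd63, Cd47, Cd34 and Cd68 are lowest at lactation.

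The broadly expressed tetraspanins each took a course of their own. Cd9 had signals of 345.1, 401.7 and 374.2 at puberty, 1108.2 and 1156.8 at pregnancy, 479.5 and 656.6 at lactation and 856.7 and 961.0 at involution, with every stage apart. It was 3.04-fold higher at pregnancy than at puberty (adjusted p = 0.000777), 2.02-fold lower at lactation than at pregnancy (adjusted p = 0.00188) and still higher at involution than at puberty, by 1.28 (adjusted p = 0.00212). Cd82 had 204.9, 259.7 and 220.8 at puberty, 313.5 and 332.6 at pregnancy, 1436.5 and 1328.0 at lactation and 194.8 and 334.7 at involution. Both lactation arrays of Cd82 stood apart, 4.28-fold above pregnancy (adjusted p = 0.000303), and involution was 5.41-fold below lactation (adjusted p = 0.000109). A dimmer probe set of Cd82 rose at lactation by 1.06 (adjusted p = 0.0311) but did not pass the F test (adjusted p = 0.0762). Cd63, an abundant protein of lysosomes and secretory granules, had 1054.2, 1183.0 and 1015.5 at puberty, 953.6 and 989.9 at pregnancy, 183.8 and 231.8 at lactation and 1241.0 and 1173.2 at involution. It was lower at lactation alone, 4.71-fold below pregnancy (adjusted p = 2.80e-05) and involution was 5.85-fold above lactation (adjusted p = 1.17e-05). Cd81, which many cell types make, had 626.3, 566.3 and 561.7 at puberty, 862.4 and 862.3 at pregnancy, 1042.1 and 1013.7 at lactation and 804.1 and 1062.0 at involution (F test adjusted p = 0.00431). Puberty was its lowest stage, apart from the rest. Cd151, a partner of laminin-binding integrins, was at 611.3 to 863.9 on all arrays and did not pass (adjusted p = 0.598).

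Antigens of vessels, stroma and adhesion were lowest at lactation for 5 of the 7 that passed, out of 8 tested, against 41.5% of all probe sets that passed. Cd34, which marks endothelium and progenitor cells of the fat pad, had signals of 231.8, 277.5 and 195.9 at puberty, 227.9 and 207.6 at pregnancy, 33.5 and 36.6 at lactation and 169.4 and 172.6 at involution. Puberty and pregnancy overlapped, and lactation was 6.21-fold lower than pregnancy (log2 change -2.64, standard error 0.197, adjusted p = 4.29e-05). A dimmer probe set of Cd34 also fell at lactation, by 2.08 (adjusted p = 0.00385), but its rise at involution, of 1.11, did not pass (adjusted p = 0.0507). That probe set had 150.3, 197.5 and 160.3 at puberty and 81.8 and 51.5 at involution. Cd93, a receptor of endothelial and myeloid cells, had 159.6 to 200.3 at puberty, 181.6 and 184.3 at pregnancy, 49.0 and 96.9 at lactation and 190.0 and 212.6 at involution, a fall of 1.41 at lactation (adjusted p = 0.00543). Cd99, an adhesion gene, had 810.2 to 891.9 at puberty, 1053.4 and 804.6 at pregnancy, 271.7 and 394.6 at lactation and 462.6 and 662.9 at involution, a fall of 1.49 at lactation (adjusted p = 0.00142). Cd276, which encodes B7-H3, was highest at pregnancy, with 163.0 and 166.1 there, against 100, 81.1 and 74.8 at puberty, and stood at 55.0 and 32.3 at lactation and 74.9 and 68.3 at involution. It fell by 1.96 at lactation against pregnancy (adjusted p = 0.00100), while its rise at pregnancy, of 0.96 (adjusted p = 0.0492), was not called without any 1 array of puberty, pregnancy or involution. Cd164, of a sialomucin, was highest at puberty, with 1673.5, 1819.2 and 1170.3, and lay at 691.7 to 923.6 on the other 6 arrays. It was the 1 CD antigen lower at involution than at puberty, by a log2 change of -1 (adjusted p = 0.0236), a call lost without any 1 array except puberty replicate 3 or the pregnancy arrays, with an adjusted p up to 0.173. Cd200, of an inhibitory ligand, had 111.0, 122.5 and 93.6 at puberty, 34.8 and 47.6 at pregnancy, 47.6 and 49.0 at lactation and 100.6 and 83.3 at involution (F test adjusted p = 0.00270). Cd44, the hyaluronan receptor gene, was dim, with 27.6 to 39.5 at puberty, 23.2 and 23.3 at pregnancy, 4.2 and 7.6 at lactation and 12.7 and 26.0 at involution, and its F test (adjusted p = 0.0297) was not passed without any 1 array of puberty replicates 1 or 2, pregnancy or lactation. Cd99l2 did not pass the F test (adjusted p = 0.105).

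The self signal Cd47, which keeps phagocytes from engulfing a cell, had signals of 573.3, 712.8 and 636.2 at puberty, 671.3 and 675.0 at pregnancy, 130.7 and 166.6 at lactation and 790.0 and 950.4 at involution. It was 4.56-fold lower at lactation than at pregnancy (adjusted p = 5.46e-05) and 5.87-fold higher at involution than at lactation (adjusted p = 1.92e-05), and its dimmer probe set moved the same way, by -1.55 and 1.94. Cd59a, of an inhibitor of the complement pore, had 187.6, 233.7 and 285.5 at puberty, 272.4 and 166.8 at pregnancy, 84.3 and 133.4 at lactation and 424.6 and 503.8 at involution. Both involution arrays were above all others, with a rise from lactation of 2.12 (adjusted p = 0.000792). Its close copy Cd59b and the complement regulator gene Cd55 did not pass (adjusted p = 0.410 and 0.159), although Cd55 passed when either involution array was left out. Of the genes that only carry the name of a CD antigen, Cd2ap, of an adaptor protein of the cytoskeleton, had 80.3 and 62.2 at lactation and 9.3 to 39.9 elsewhere, and was at least 3.53-fold lower at involution than at lactation (adjusted p = 0.000884). Cd2bp2, of a splicing protein, was dim (16.1 to 42.3), and its F test (adjusted p = 0.0397) was not passed without any 1 of 6 arrays.

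**Figure D5:**
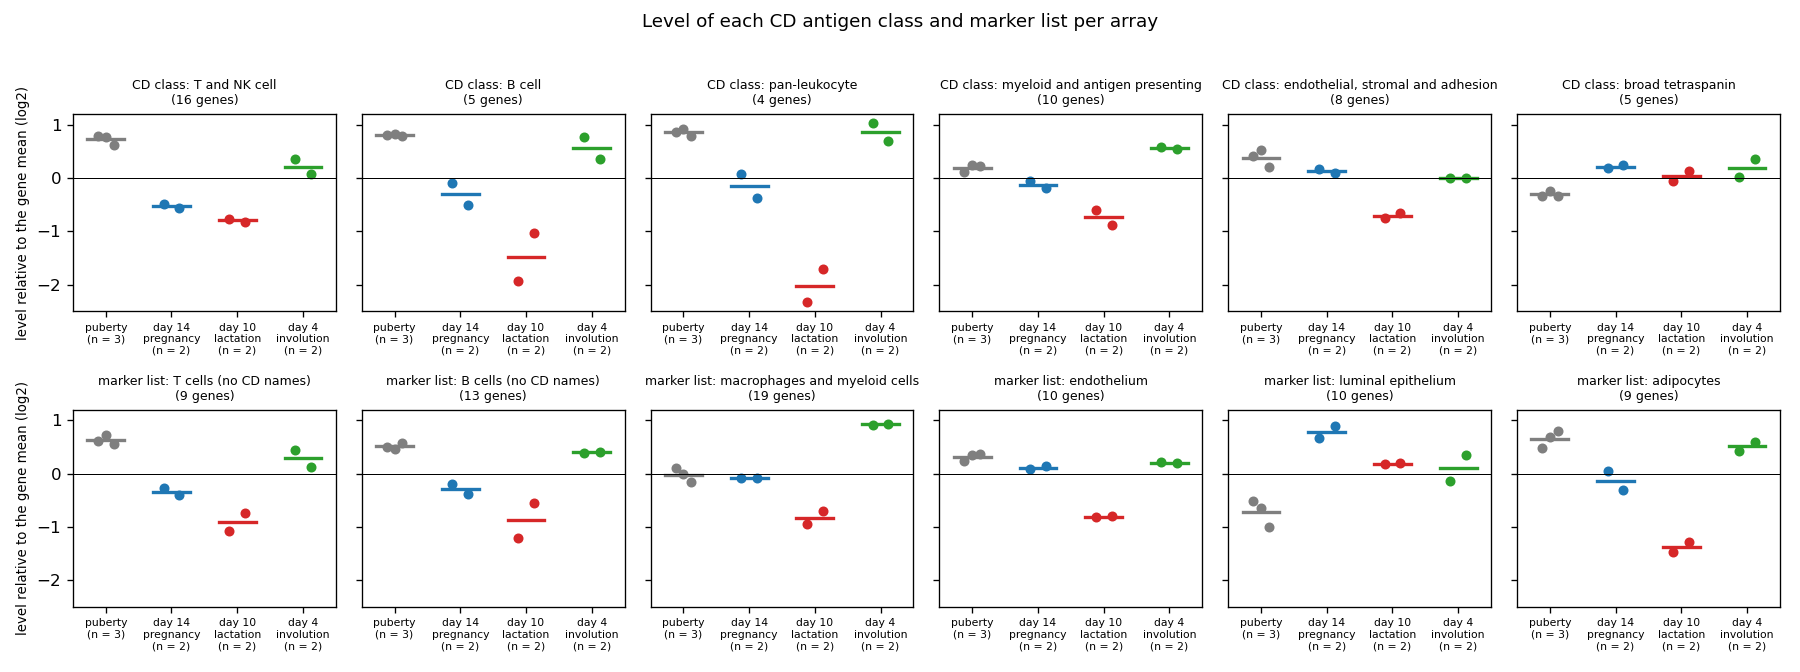
Level of 6 classes of CD antigens (upper row) and of 6 marker lists without CD names (lower row) on each array, on the log2 scale and relative to the mean of all arrays. Each point is an array and each bar the mean of a stage. The B cell class lies at -1.94 and -1.04 on the lactation arrays and the pan-leukocyte class at -2.33 and -1.71, and the luminal list is highest at pregnancy.

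Levels averaged over a class are given here for the myeloid class and for the T and NK cell class. The latter includes the brightest probe set of Cd6, which was high at lactation. For the level, each tested gene's log2 signal was taken relative to its average over all arrays, and these were averaged over the class. That of the T and NK cell class was 0.80, 0.78 and 0.63 at puberty, -0.49 and -0.56 at pregnancy, -0.77 and -0.82 at lactation and 0.36 and 0.07 at involution. That of the myeloid class was 0.11, 0.24 and 0.22 at puberty, -0.05 and -0.19 at pregnancy, -0.60 and -0.88 at lactation and 0.59 and 0.55 at involution. The myeloid arrays of involution thus lay above those of puberty, and the T cell arrays of involution below them. Markers of cells other than leukocytes were lower at lactation too. The median log2 change at lactation against pregnancy was -2.05 over 10 stroma and matrix markers, -1.49 over 9 adipocyte markers and -0.88 over 10 endothelial markers. At puberty the 9 skeletal muscle markers had a summed signal of 11290 to 27090, against 550 to 1593 on the other 6 arrays. The part of these tissues in the values of the CD antigens was not tested.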

How the data were processed

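The deposited values are linear signal intensities per probe set and array. Per the labels the authors computed them with MAS5, and each array was scaled, so that the trimmed mean over the probe sets without the lowest and highest 2% was 125.1 on all 9 arrays. The methods describe a filter on a stage mean of 20 signal units and an analysis of variance in GeneSpring, and the filter was followed here. The 66 control probe sets were left out, the arrays were scaled to equal medians (factors 0.948 to 1.06), signals were raised to a floor of 20 and put on the log2 scale. Printed signals are scaled, without the floor. The 9783 probe sets with a stage mean above 20 in at least 1 stage were fitted with limma 3.58.1 in R 4.3.3 (lmFit, eBayes with trend), with 1 estimate of the spread over all arrays, a moderated F test and 4 contrasts of a later minus an earlier stage, adjusted by Benjamini-Hochberg over all 9783 at 0.05. A gene under the floor on all arrays of a stage is given a lower bound of its fold. Between 13.2% and 15.5% of tested values per array lay at the floor; arrays of 1 stage correlated with r of 0.947 to 0.975 and those of different stages with 0.724 to 0.935. Precision is limited by how many arrays there are.

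Genes were named by the platform annotation; 396 probe sets with several symbols were not used, 2 of them for CD genes. Up to 6 members per class with the smallest adjusted p in the F test and a set of defining antigens are given with their values, other members mostly by range. The members and lists were chosen with earlier results of these data known. Cd300c2 and Cd70 were added to the myeloid class after the annotation was read. Sequences come from RefSeq tables of GRCm38.p6. The steps were tested on simulated data; figures used matplotlib 3.10.9. The alternatives were other scalings, floors and filters, eBayes without trend or robust, an unmoderated analysis of variance, a block for the replicate number, all probe sets of a gene, and each array left out in turn.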

Additional observations from a re-analysis of the deposited data

How the results depend on the processing

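The count of CD antigens past the F test was 44, and 36 to 48 under the alternatives, among them 38 by a plain analysis of variance as the methods name it, and 40 to 44 without 1 array. At involution against lactation 23 to 35 rose and 4 to 7 fell, and at lactation against pregnancy 17 to 28 fell. Without 1 array, the counts at pregnancy against puberty were 2 to 3 up and 5 to 21 down, at lactation against pregnancy 3 to 8 up and 18 to 23 down, at involution against lactation 27 to 31 up and 4 to 7 down, and at involution against puberty 2 to 5 up and 0 to 2 down. Without a filter 2 rose at pregnancy against puberty and 0 were lower at involution than at puberty. The count lower at involution was 2 on the deposited scale, with scaling to the 75th percentile, with quantile normalization and with every probe set counted. Deviations from the stage mean correlated at -0.15 to 0.05 in 12 pairs of arrays with the same replicate number. This cannot show whether the arrays were paired, since in a stage of 2 arrays the deviations mirror each other and some pairs repeat the same value. With the replicate block, 2 rose and 13 fell at pregnancy against puberty, and 2 were higher at involution than at puberty. The cause of these differences was not tested. Of 2406 repeats of results on single named genes, 2216 kept their side of the threshold and direction, 185 lost the call, 5 gained one and 0 changed sign. Low signal limits what can be seen of Cd180, Cd46, Cd40lg, Cd160, Cd5l and Cd44.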
